A study of Homo sapiens with 6 samples.

Results

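Immediate-early and mitogen-activated protein kinase (MAPK) feedback genes were described across the mRNA libraries of MRC5 cells, a human fetal lung fibroblast line. Members were taken by symbol from the mRNA table: FOS and JUN family, EGR1 to EGR4, NR4A1 to NR4A3, ETV1, ETV4 and ETV5, the IER, SPRY and SPRED genes, all DUSP genes with a number, PHLDA1 and MYC. This gave 53 genes of the 60623 in the table, each with 1 Ensembl ID. Of these, 46 reached 1 CPM (a count scaled to the library total after adjusting that total by its TMM factor) in at least 1 library. The remaining 7 stayed under 1 CPM in all 3, and 3 of those 7 (EGR4, DUSP21 and DUSP29) had no count at all. The other 4 were DUSP9, DUSP13 (0 or 1 counts per library), DUSP15 (0 to 3) and DUSP26 (2 to 4). The cells carried the wild-type genotype in every group and were collected at 48 h. The control was labelled DMSO, the second group received TGF-β1, the cytokine used to turn fibroblasts into myofibroblasts, and the third received luteolin, a plant flavonoid, together with TGF-β1; doses were not given in the sources used here. Each group had 1 mRNA library, and the 3 held 17876657, 14609132 and 15563805 counts. With 1 library per group no test between treatments was possible. All ratios below compare libraries after TMM scaling, and each interval is an exact 95% interval that covers counting error only. A gene counts as eligible where either library of the pair reached 1 CPM, and it is called when it differed by 2-fold or more with an interval that left out equality. Where 3 values stand in a row, their order is control, TGF-β1, luteolin + TGF-β1. In bulk RNA, a lower level per cell and fewer expressing cells cannot be told apart.

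Immediate-early genes are transcribed within minutes of a growth factor, cytokine or stress signal without new protein synthesis, and most encode transcription factors (FOS, JUN, EGR, NR4A). A later set driven by the ERK arm of the MAPK pathway includes genes that shut the signal down. DUSP proteins remove phosphate from MAP kinases, and SPRY and SPRED proteins block RAS and RAF activation. The ETS factors ETV1, ETV4 and ETV5 are also in this set but carry the signal on in development. In fibroblasts these genes respond to serum, to matrix stiffness and to TGF-β1.

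Fibroblast markers were present throughout, with all 10 listed markers at 1 CPM or more in every library. Of the defining markers of other cell types, PECAM1, PTPRC and SFTPC had 0 counts in all 3 libraries, CDH1 had 1 count in each and EPCAM had 1 to 5. The summed authors' TPM (a level scaled for transcript length and library size) of 6 epithelial markers was 131, 169 and 53.5, with KRT18 and KRT8 the most counted, and that of 6 endothelial markers was 31.0, 27.9 and 2.09, nearly all of it TEK. Leukocyte markers summed to 0.378 to 2.53 TPM, with PTPRC and CD3E at 0 counts. Of 6 pericyte and smooth muscle markers 5 reached 1 CPM in each library, with sums of 179.9, 155.9 and 144 TPM; MYH11, the smooth muscle myosin gene, had 2, 6 and 115 counts. The fibroblast markers summed to 10771, 14398 and 19700 TPM. For TGF-β1 over control, DCN (log2 ratio -2.80) and LUM (-2.82) were called lower. COL1A1 (1.07) was called higher there, a call lost when scaled by total counts. For luteolin + TGF-β1 over control, S100A4 (-2.59) was called lower and COL1A1 (1.88), COL1A2 (1.86) and PDGFRB (1.56) higher. The marker sums moved with the groups, and their part in the results was not tested.

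Promoter sequences of 4 members are shown because they stood on opposite sides of the luteolin + TGF-β1 comparisons described below: EGR1 and DUSP6 were lower there, and DUSP1 and NR4A3 were higher. Each is the 250 bases before the RefSeq start on GRCh38.p14, on the gene's own strand. Capitals mark the CRE core TGACG, found on either strand, and the CArG box, the binding site of serum response factor.
EGR1 promoter, chr5:138465229-138465478, plus strand: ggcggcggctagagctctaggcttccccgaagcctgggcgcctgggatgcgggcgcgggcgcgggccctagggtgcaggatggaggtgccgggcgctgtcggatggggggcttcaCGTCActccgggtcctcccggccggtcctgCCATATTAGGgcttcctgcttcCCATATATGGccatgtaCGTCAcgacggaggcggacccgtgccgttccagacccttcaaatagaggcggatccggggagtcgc
DUSP1 promoter, chr5:172771196-172771445, minus strand: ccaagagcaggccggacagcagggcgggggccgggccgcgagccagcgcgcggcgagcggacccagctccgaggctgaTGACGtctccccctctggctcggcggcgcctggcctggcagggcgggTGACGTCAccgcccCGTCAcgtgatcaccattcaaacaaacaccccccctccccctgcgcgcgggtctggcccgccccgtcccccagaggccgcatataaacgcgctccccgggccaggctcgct
NR4A3 promoter, chr9:99821635-99821884, plus strand: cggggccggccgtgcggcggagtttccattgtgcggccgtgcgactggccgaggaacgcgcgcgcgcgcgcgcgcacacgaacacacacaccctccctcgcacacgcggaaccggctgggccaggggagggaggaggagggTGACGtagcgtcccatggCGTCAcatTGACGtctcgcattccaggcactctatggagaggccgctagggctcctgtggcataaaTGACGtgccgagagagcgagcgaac
DUSP6 promoter, chr12:89352502-89352751, minus strand: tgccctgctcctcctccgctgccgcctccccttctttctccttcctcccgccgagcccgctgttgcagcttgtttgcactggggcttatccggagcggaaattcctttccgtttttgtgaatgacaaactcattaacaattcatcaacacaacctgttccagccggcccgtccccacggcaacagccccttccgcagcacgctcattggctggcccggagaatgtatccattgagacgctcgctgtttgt

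The EGR1 window held a pair of CArG boxes, starting 105 and 83 bases before the start, and CRE cores 135 and 66 bases before it. The DUSP1 window held CRE cores 172, 125, 122 and 111 bases before the start; those at 125 and 122 overlap and form the full CRE, TGACGTCA, the palindrome bound by CREB and ATF factors. The NR4A3 window held CRE cores at 109, 91, 83 and 25 bases and no full CRE, and the DUSP6 window held neither motif. Among the 41 members with a promoter in the table, 21 held a CRE core, or 51.2%, beside 21.7% of all 27305 promoters of that length. The full CRE was in 3 of the 41 (DUSP1, DUSP8 and JUND) beside 1.77% of all promoters, and the CArG box was in 1, EGR1, beside 1.14%. The AP-1 motif TGACTCA was in 1 of the 41 (4.16% of all), the ETS motif CCGGAAG in 2 (8.82% of all) and the EGR motif GCGTGGGCG in 0 (0.710% of all). All motifs were searched on both strands and chosen after the values were seen; matches depend on base composition and are a description of these letters only.

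TGF-β1 over control showed a split among the members rather than a shift. JUNB, EGR2, ETV4 and IER3 were higher in the TGF-β1 library, and PHLDA1, DUSP5, DUSP10 and SPRY1 were lower. EGR1, JUN, FOSL1, DUSP1 and MYC all lay within 2-fold of control. In all, 6 of 45 eligible members were called higher, or 13.3%, beside 3.7% of all 13416 eligible genes, and 5 were called lower, or 11.1%, beside 6.67%. Within this pair of libraries, FOS, FOSB and EGR2 of the 6 reached 1 CPM with TGF-β1 only. Of the 5, SPRY1 and DUSP4 did so in control only. All of these genes thus entered the comparison through the library where they were high. The members' median log2 ratio was 0.08 against -0.01 over all eligible genes.

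Luteolin + TGF-β1 over TGF-β1 showed higher levels for DUSP1 and the NR4A receptors and lower levels for some members of the AP-1, EGR, PEA3, SPRY and DUSP groups. ETV4 was 6.73-fold lower, EGR1 6.53-fold lower, ETV1 4.58-fold lower and SPRY2 3.28-fold lower, while DUSP1 was 5.10-fold higher and NR4A1 3.92-fold higher. Of 46 eligible members 12 were called lower, or 26.1%, beside 14.8% of all 13703 eligible genes, and 6 were called higher, or 13.0%, beside 12.5%, a share near the background. FOSB, EGR3 and DUSP2 among the lower members reached 1 CPM in the TGF-β1 library only, and NR4A3 among the higher members did so in the luteolin + TGF-β1 library only. The median log2 ratio of the eligible members was -0.37 against -0.04 over all eligible genes. The split depended on scaling. With total counts 5 of 45 eligible members were higher and 15 lower, beside 8.77% and 19.7% of all eligible genes. With upper-quartile scaling 8 of 46 were higher and 8 lower, beside 16.2% and 11.7%. Over all genes the share of calls that were higher was 45.7% under TMM, 30.8% under total-count scaling and 58.1% under the upper quartile.

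Luteolin + TGF-β1 over control had 11 of 43 eligible members lower, or 25.6%, beside 17.1% of all 13859 eligible genes, and 6 higher, or 14.0%, beside 12.4%. The lower members were EGR1, FOSL1, JUN, ETV1, ETV4, SPRY1, SPRY2, DUSP5, DUSP6, DUSP10 and PHLDA1. The higher members were EGR2, JUNB, DUSP1, NR4A1, NR4A2 and NR4A3. Within this pair of libraries, EGR2 and NR4A3 reached 1 CPM with luteolin + TGF-β1 only, and so entered through the library where they were high. All 11 lower calls held under the 4 scalings run, and 5 of the 6 higher calls did, NR4A2 being the exception. With total counts 5 of 43 eligible members were higher and 15 lower, beside 7.8% and 25.5% of all eligible genes. With the upper quartile 8 were higher and 11 lower, beside 15.9% and 14.2%. The share of all calls that were higher went from 42.1% under TMM to 23.4% and 52.8%. The 3 comparisons share libraries in pairs, so their values for a member are given side by side and were not correlated.

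**Figure D1:**
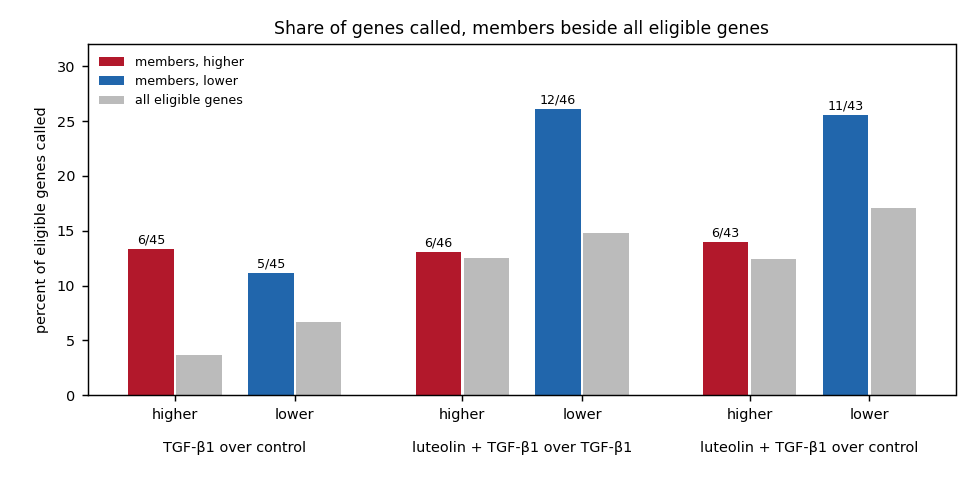
Percent of eligible genes called higher or lower (vertical axis) for the members, with the number called over the number eligible printed above each bar, and for all eligible genes (grey), in each of the 3 comparisons between single libraries. The members' bars for lower calls with luteolin + TGF-β1 stand at 26.1% and 25.6% beside 14.8% and 17.1%, and the bars for higher calls in those comparisons stand within 2 percentage points of the grey ones.

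AP-1 is a dimer of a FOS and a JUN family protein. FOSL1, which encodes the FOS protein FRA-1 and is a long-lived ERK-responsive member, had 4179, 2577 and 1038 counts, or 210.0, 173 and 75.9 CPM. Its log2 ratio was -0.28 for TGF-β1 over control and -1.19 (interval -1.29 to -1.08) for luteolin + TGF-β1 over TGF-β1, so that the last library stood lowest. FOSL2, which encodes FRA-2, had 144, 120.2 and 138 CPM and lay within 2-fold in all 3 comparisons. The classical immediate-early members FOS and FOSB were scarce at this time, with 18, 32 and 20 counts for FOS and 10, 19 and 6 for FOSB. FOS had a log2 ratio of 1.24 (0.37 to 2.16) for TGF-β1 over control and FOSB 1.34 (0.16 to 2.61), intervals that leave both close to equality at their lower end. The FOSB call there was lost with an assumed dispersion of 0.04. FOSB was called lower for luteolin + TGF-β1 over TGF-β1 (-1.54, -3.15 to -0.16), a call lost with the upper quartile and with an assumed dispersion of 0.04. By TPM, FOSL1 made up 84.5%, 83.8% and 67.0% of the summed FOS family level, which went from 540.1 TPM in control to 434 and 206.

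The JUN family differed in makeup among all 3 libraries. JUN, the founding AP-1 subunit, had 2715, 2385 and 791 counts, or 136, 159.7 and 57.8 CPM. It lay within 2-fold of control with TGF-β1 (log2 ratio 0.23) and was 2.76-fold below TGF-β1 in the luteolin + TGF-β1 library (-1.47, -1.58 to -1.35). JUNB (chromosome 19, 12791486 to 12793315), a subunit that can oppose JUN at shared sites, had 662, 1818 and 1856 counts. Its level was 3.66-fold higher with TGF-β1 than in control (1.87, 1.74 to 2.003) and nearly level between the TGF-β1 and luteolin + TGF-β1 libraries (0.16, 0.06 to 0.25). JUND, the most constant of the 3, had 42.2, 48.2 and 64.0 CPM. The share of JUN in the JUN and JUNB counts, which needs no scaling between libraries, was 80.4% (exact Clopper-Pearson interval 79.0 to 81.7) in control, 56.7% (55.2 to 58.2) with TGF-β1 and 29.9% (28.1 to 31.7) with luteolin + TGF-β1. By TPM, JUN was the leading JUN family gene in control at 51.1% of the family sum, and JUNB led in the other libraries at 47.3% and 59.3%.

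EGR factors are zinc finger proteins of the early growth response. EGR1 (chromosome 5, 138465479 to 138469303), whose promoter with its CArG boxes is printed above, had 872, 862 and 121 counts. In CPM the levels were 43.8, 57.7 and 8.85, so that control and TGF-β1 were within 2-fold (log2 ratio 0.40) and luteolin + TGF-β1 stood apart below them (-2.71, -2.99 to -2.43, against TGF-β1). EGR2 (chromosome 10, 62811996 to 62819167) had 3, 132 and 230 counts and was highest in the library where EGR1 was lowest. On those 3 control counts the log2 ratio of TGF-β1 over control was 5.87 (4.30 to 8.17). That of luteolin + TGF-β1 over TGF-β1 was 0.93 (0.61 to 1.25), short of 2-fold with TMM but called higher with the upper quartile (1.10). EGR1 therefore made up 99.7% (99.001 to 99.9) of the EGR1 and EGR2 counts in control, 86.7% (84.5 to 88.8) with TGF-β1 and 34.5% (29.5 to 39.7) with luteolin + TGF-β1. EGR3 had only 11, 18 and 5 counts and was called lower with luteolin + TGF-β1 (-1.72, -3.51 to -0.24), having entered through the TGF-β1 library.

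The NR4A genes encode orphan nuclear receptors that are induced by cAMP, calcium and growth factor signals. NR4A1 (NUR77) had 202, 173 and 622 counts, or 10.1, 11.6 and 45.5 CPM, with the luteolin + TGF-β1 library alone high. Its log2 ratio was 0.19 (-0.11 to 0.49) for TGF-β1 over control and 1.97 (1.73 to 2.22) for luteolin + TGF-β1 over TGF-β1. NR4A2 had 26, 17 and 43 counts and a ratio of 1.47 (0.63 to 2.37) in the latter comparison. NR4A3, whose promoter is printed above, had 9, 3 and 76 counts and a ratio of 4.79 (3.19 to 7.10) on the 3 counts with TGF-β1. All 3 NR4A genes were thus called higher with luteolin + TGF-β1, both against TGF-β1 and against control, while neither NR4A1 nor NR4A2 was called for TGF-β1 over control and NR4A3 was not eligible there. The NR4A2 call against control was lost with total counts. The summed NR4A level was 7.35 and 7.58 TPM in control and TGF-β1 and 27.1 TPM with luteolin + TGF-β1.

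**Figure D2:**
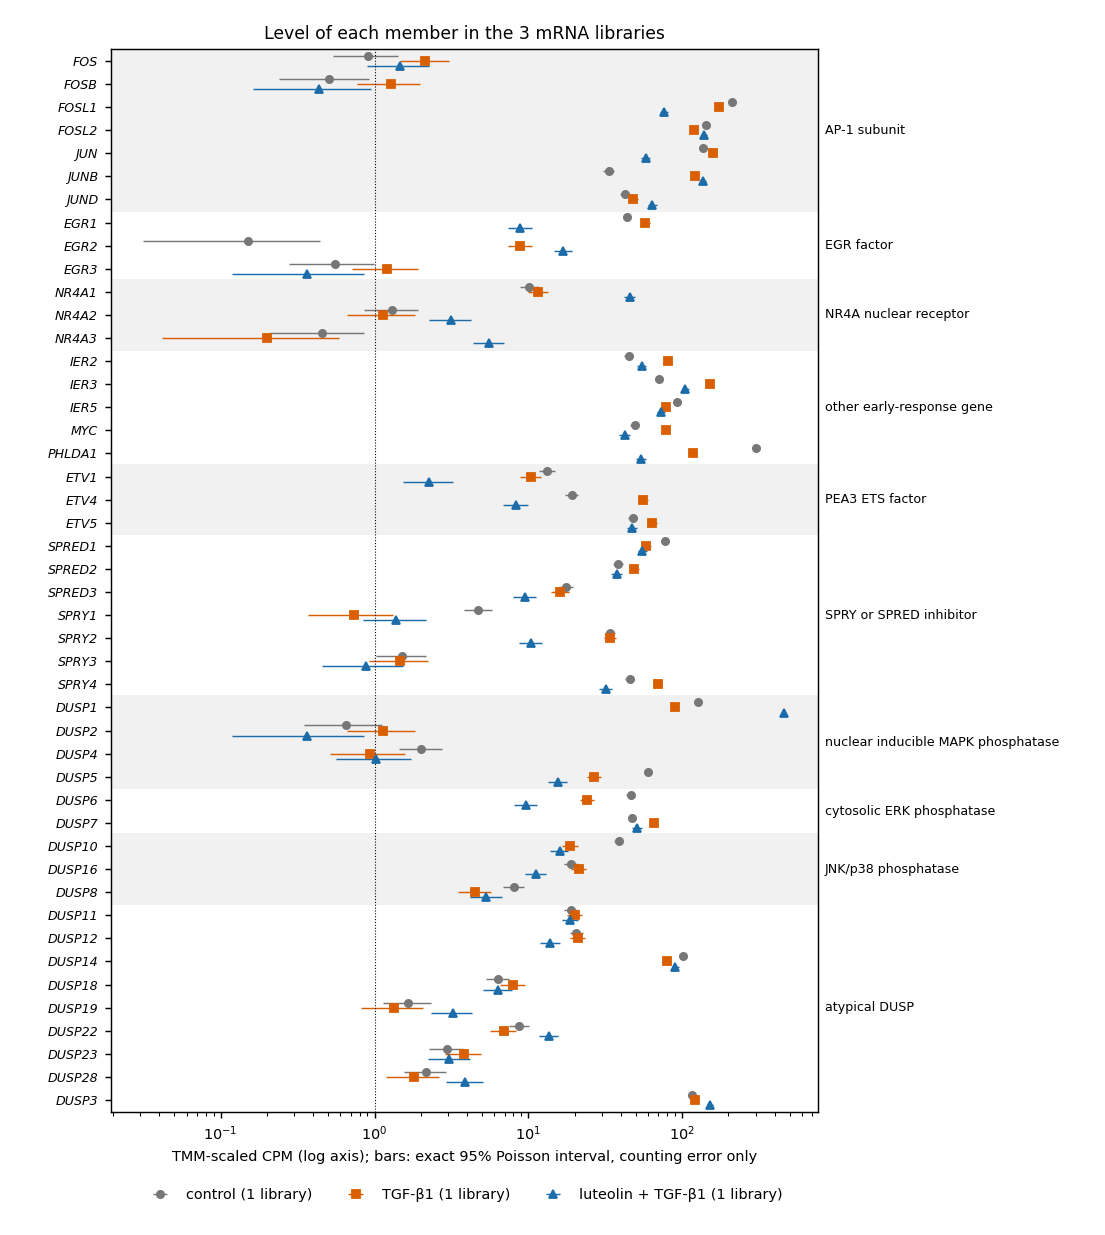
TMM-scaled CPM on a log axis (horizontal) for the 46 members at 1 CPM or more in at least 1 library, grouped by role, with 1 point per library and bars for the exact 95% Poisson interval of counting error; the dotted line marks 1 CPM. EGR2 lies to the left in control at 0.151 CPM and to the right in the other libraries, the NR4A genes lie to the right with luteolin + TGF-β1 only, and DUSP1 reaches 458 CPM in that library.

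Among the other early-response genes, PHLDA1, which encodes a pleckstrin homology-like protein that follows ERK activity, was stepwise lower across the libraries with 5986, 1767 and 742 counts. Its log2 ratio was -1.35 (-1.42 to -1.27) for TGF-β1 over control and -1.13 (-1.25 to -1.001) for luteolin + TGF-β1 over TGF-β1, and luteolin + TGF-β1 was 5.54-fold below control. The call against TGF-β1 was lost with the upper quartile. IER3, an immediate-early gene linked to survival and ERK signalling, had 1405, 2252 and 1428 counts and was highest with TGF-β1 (1.10, 1.00 to 1.19, over control), a call lost with total counts. IER2 showed the same order of libraries at 45.0, 80.7 and 54.5 CPM without reaching 2-fold, and IER5 had 92.8, 78.0 and 72.6 CPM. MYC, the growth-promoting transcription factor, had 976, 1166 and 581 counts, with log2 ratios of 0.67 (0.55 to 0.80) and -0.88 (-1.02 to -0.73), both short of 2-fold with TMM; with total counts the second reached a call (-1.10).

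ETV1, ETV4 and ETV5 form the PEA3 subfamily of ETS factors, which are transcribed downstream of receptor tyrosine kinases and ERK. ETV4 (chromosome 17, 43527846 to 43546340) had 381, 830 and 113 counts, or 19.1, 55.6 and 8.26 CPM. TGF-β1 stood highest, 2.90-fold over control (log2 ratio 1.54, 1.36 to 1.72), and luteolin + TGF-β1 lowest, with a ratio of -2.75 (-3.05 to -2.47) to TGF-β1 and -1.21 (-1.53 to -0.91) to control. ETV1 had 264, 155 and 31 counts, with -0.35 (-0.65 to -0.06) for TGF-β1 over control and -2.20 (-2.80 to -1.63) for luteolin + TGF-β1 over TGF-β1. ETV5 was the steadiest of the subfamily at 949, 956 and 644 counts, with a ratio of -0.44 in the latter comparison. By TPM, ETV4 held 36.1%, 56.5% and 21.9% of the subfamily sum, and ETV5 held 75.9% of the smaller sum in the last library.

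Sprouty (SPRY) and SPRED proteins are membrane-bound inhibitors of the RAS to RAF step, and several are ERK-induced. SPRY2 had 675, 509 and 142 counts, or 33.9, 34.1 and 10.4 CPM, so that control and TGF-β1 were alike within counting error (log2 ratio 0.01, -0.16 to 0.18) and luteolin + TGF-β1 was lower (-1.72, -1.99 to -1.44). SPRY4 had 907, 1046 and 435 counts, with 0.62 (0.49 to 0.75) and -1.14 (-1.30 to -0.98), the second call being lost with the upper quartile. SPRY1 differed from its relatives in being low with TGF-β1 already: it had 94, 11 and 19 counts, with -2.68 (-3.73 to -1.78) for TGF-β1 over control and 0.91 (-0.23 to 2.13) for luteolin + TGF-β1 over TGF-β1. SPRY3 had 12 to 30 counts per library and was not called with TMM. SPRED1, SPRED2 and SPRED3 were not called with TMM in any comparison, while total counts gave lower calls against control for SPRED3 (-1.22) and SPRY3 (-1.12) in the luteolin + TGF-β1 library; the lowest of them in luteolin + TGF-β1 against TGF-β1 was SPRED3 at -0.76 (-1.08 to -0.44).

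**Figure D3:**
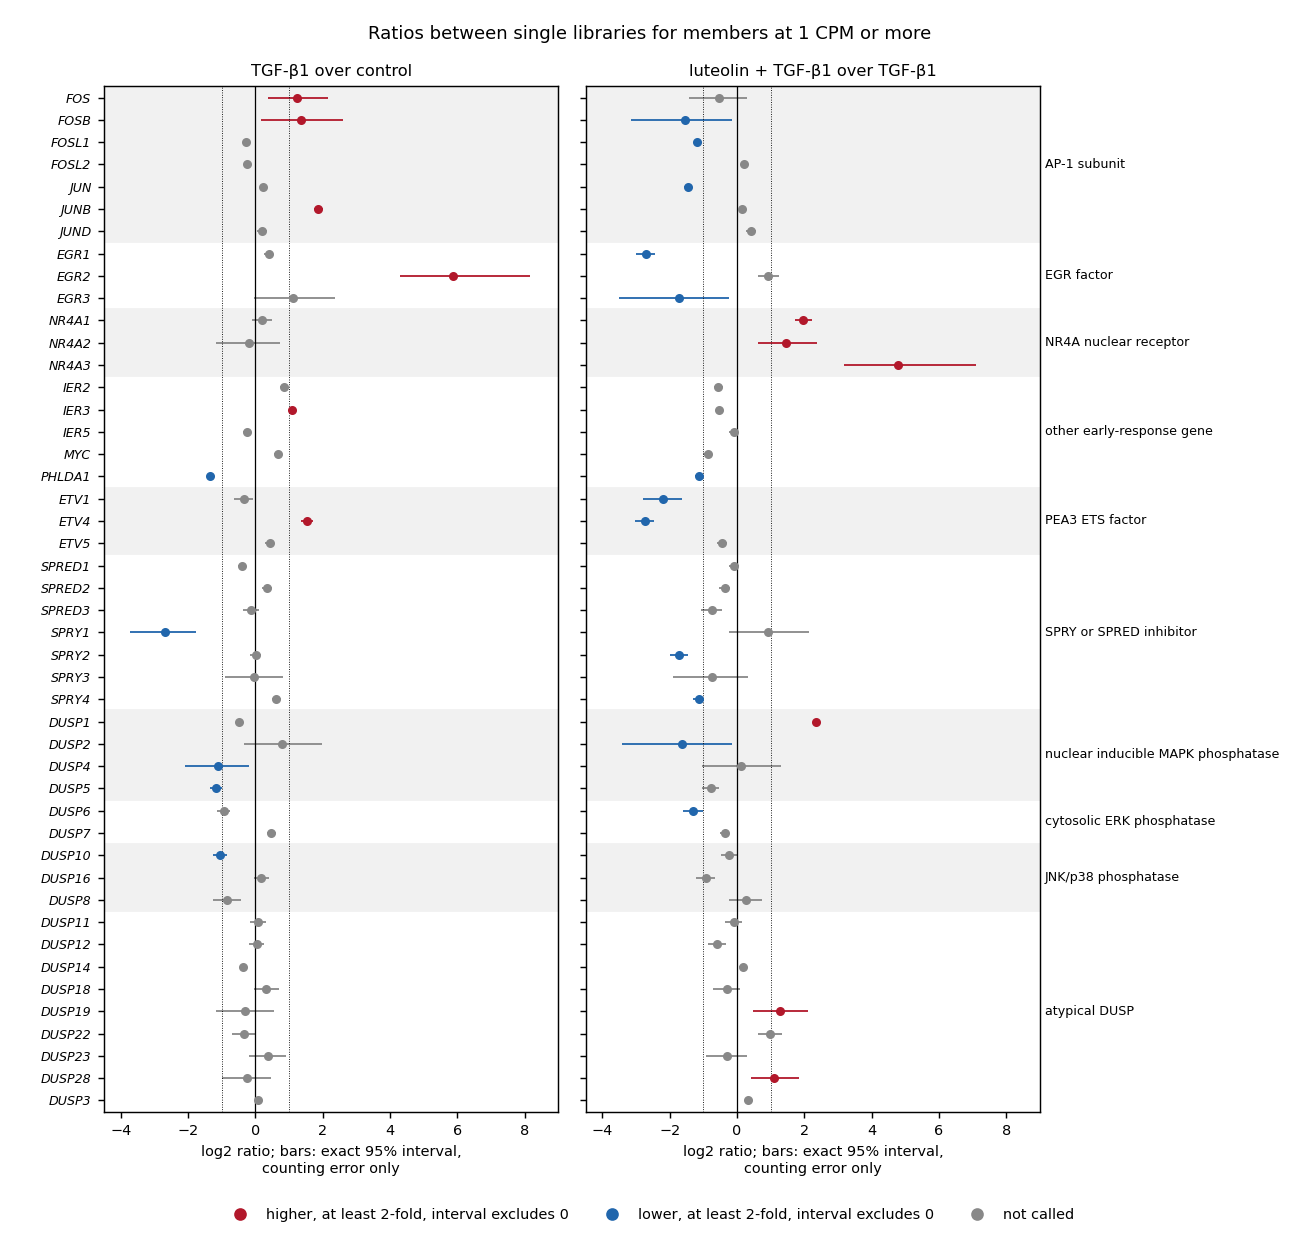
Log2 ratio (horizontal) of each member for TGF-β1 over control (left) and luteolin + TGF-β1 over TGF-β1 (right), with exact 95% intervals of counting error; red and blue mark called genes, grey the rest, and dotted lines mark 2-fold. A member under 1 CPM in both libraries of a comparison has no point there. On the right, ETV4 at -2.75 and EGR1 at -2.71 lie lowest, and NR4A3 at 4.79 and DUSP1 at 2.35 lie highest.

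The dual-specificity phosphatases that act on MAP kinases did not move as a class. DUSP1 (MKP-1; chromosome 5, 172768096 to 172771195), a nuclear phosphatase with preference for p38 and JNK, had 2511, 1343 and 6269 counts. These are 126, 89.9 and 458 CPM, with TGF-β1 lowest and luteolin + TGF-β1 far above both. The log2 ratio was -0.49 (-0.58 to -0.39) for TGF-β1 over control and 2.35 (2.26 to 2.44) for luteolin + TGF-β1 over TGF-β1. DUSP5, the nuclear ERK-specific phosphatase, had 1198, 399 and 212 counts, at -1.17 (-1.34 to -1.01) and -0.79 (-1.03 to -0.54). Its direction differed from that of DUSP1 only for luteolin + TGF-β1 over TGF-β1, where DUSP5 was not called with TMM. DUSP6, the cytosolic ERK-specific phosphatase whose promoter held neither motif, had 921, 358 and 132 counts, at -0.95 (-1.13 to -0.77) and -1.31 (-1.61 to -1.02), and was 4.79-fold below control in the luteolin + TGF-β1 library. With total counts DUSP6 was also called lower for TGF-β1 over control (-1.07) and DUSP5 for luteolin + TGF-β1 over TGF-β1 (-1.004). DUSP1 made up 73.2% (71.6 to 74.6) of the DUSP1 and DUSP6 counts in control, 79.0% (76.9 to 80.9) with TGF-β1 and 97.9% (97.6 to 98.3) with luteolin + TGF-β1.

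DUSP7, a further cytosolic ERK phosphatase, had 941, 982 and 696 counts and was within 2-fold throughout. DUSP10, which acts on JNK and p38, had 768, 279 and 218 counts, with -1.05 (-1.25 to -0.85) for TGF-β1 over control and -0.23 (-0.49 to 0.03) for luteolin + TGF-β1 over TGF-β1. DUSP16 had 377, 318 and 153 counts and DUSP8 160, 67 and 73, and neither was called with TMM; with total counts DUSP16 was lower in luteolin + TGF-β1 against TGF-β1 (-1.15) and against control (-1.10). DUSP4 had 40, 14 and 14 counts and was lower with TGF-β1 (-1.10, -2.09 to -0.19), a call lost with an assumed dispersion of 0.04. DUSP2 had 13, 17 and 5 counts and was lower with luteolin + TGF-β1 (-1.64, -3.43 to -0.14), a call lost with the upper quartile and with an assumed dispersion of 0.04. DUSP9 had 2, 10 and 0 counts and stayed under 1 CPM. By TPM, DUSP1 held 50.01%, 52.9% and 89.7% of the summed level of the 10 MAPK phosphatases, and that sum was 514, 336 and 871 TPM.

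**Figure D4:**
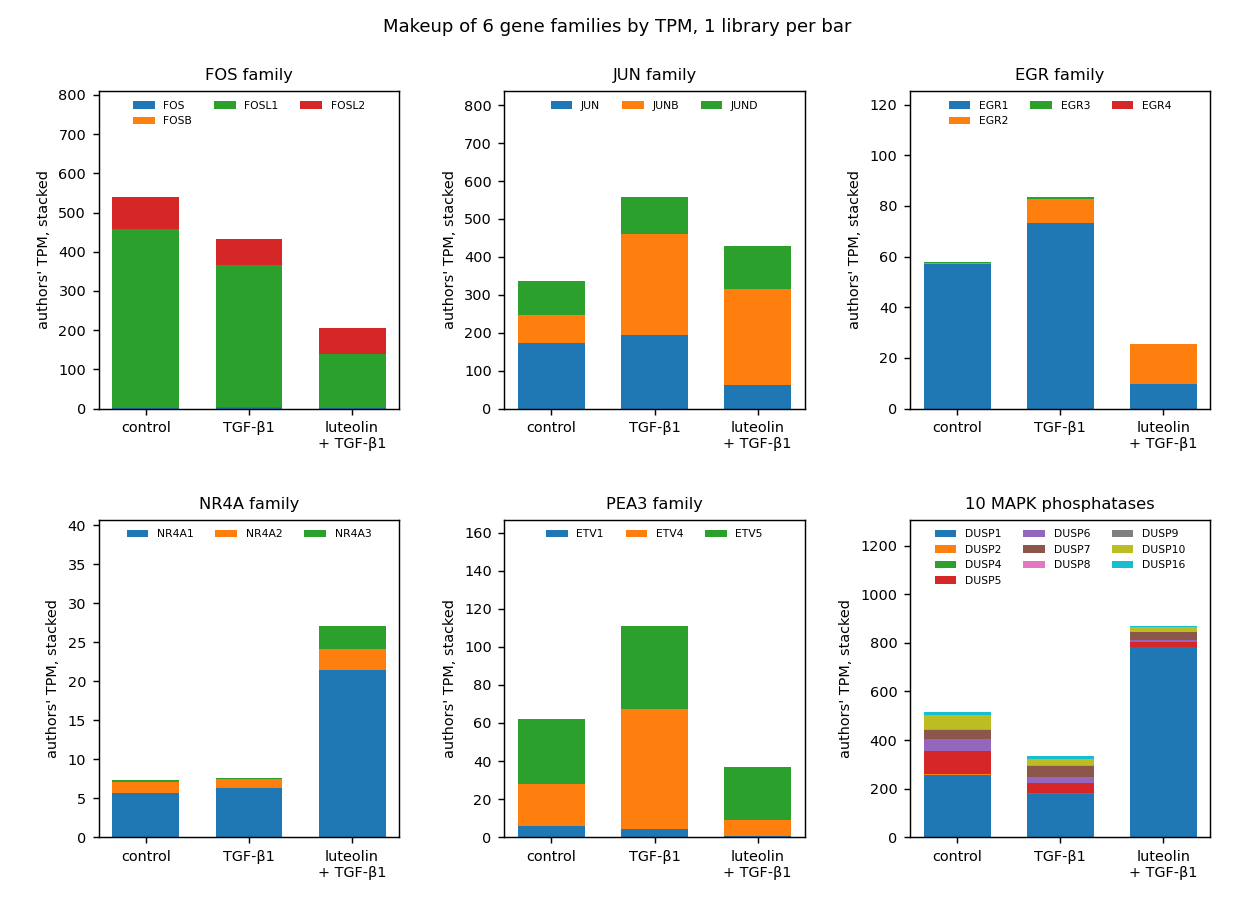
Authors' TPM of each gene stacked by family (vertical axes, each from 0) with 1 bar per library. JUNB is the largest JUN family segment in both TGF-β1 bars, ETV4 the largest PEA3 segment in the TGF-β1 bar only, and EGR2 the largest EGR segment in the luteolin + TGF-β1 bar only, where DUSP1 fills 89.7% of the phosphatase bar.

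The 14 other DUSP genes encode atypical phosphatases, most of which are not part of the ERK feedback loop. Of the 9 that were eligible, none was called for TGF-β1 over control. DUSP19 (33, 20 and 44 counts; 1.26, 0.47 to 2.105) and DUSP28 (43, 27 and 53 counts; 1.10, 0.40 to 1.83) were called higher for luteolin + TGF-β1 over TGF-β1, and the call for DUSP28 was lost with total counts. DUSP3 (VHR) and DUSP14 were the most abundant at 94.8 to 105 and 127 to 171 TPM and stayed within 2-fold. The others, DUSP11, DUSP12, DUSP18, DUSP22 and DUSP23, were also not called with TMM, DUSP22 at 0.97 lying nearest to 2-fold. With the upper quartile DUSP22 was called higher for luteolin + TGF-β1 over TGF-β1 (1.14). The same scaling called DUSP19 (1.13) and DUSP28 (1.02) higher for luteolin + TGF-β1 over control.

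By level per transcript length, the order of the members changed. In control the highest were FOSL1 at 456 TPM, DUSP1 at 257, IER3 at 214 and JUN at 172. With TGF-β1 they were IER3 at 444, FOSL1 at 363, JUNB at 264 and JUN at 195, and with luteolin + TGF-β1 they were DUSP1 at 781, IER3 at 265, JUNB at 254 and FOSL1 at 138. FOS, the best known immediate-early gene, ranked between 36 and 40 of the 53 in all 3 libraries. Summed over the members, the level was 2604, 2770 and 2428 TPM.

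The genes most like EGR2, the member furthest from control, by distance over both log2 ratios among 10768 genes with 100 or more counts in a library, were KCNH1 (4.60 and 1.18), DACT1 (4.65 and 0.12), ACTC1 (6.14 and -0.85), NUAK1 (3.69 and 1.13) and AMIGO2 (3.66 and 1.43). For NR4A3, the member furthest above TGF-β1, they were AP1G2-AS1, which is uncertain as an antisense transcript, the histone genes H2BC5 (-1.46 and 4.67) and H2AC6 (-1.41 and 4.11), SEC31B and COPG2IT1. In each pair the first value is TGF-β1 over control and the second luteolin + TGF-β1 over TGF-β1. NR4A3 was itself not eligible for TGF-β1 over control, with 9 and 3 counts and a log2 ratio of -1.17 (interval -3.69 to 0.83). Its distances therefore rest in part on an uncertain value.

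Other genes of the pathway were read from lists of its steps. The RAS to ERK core was mostly level: of 19 genes 1 was higher for TGF-β1 over control and 1 higher and 1 lower for luteolin + TGF-β1 over TGF-β1, with medians of -0.11 and -0.07. The higher gene was the scaffold KSR1 in both cases (1.21, 1.06 to 1.36, and 1.48, 1.38 to 1.59), and the lower one was the ERK-activated kinase RPS6KA1 (-1.22, -1.76 to -0.69). MAPK3, which encodes an ERK kinase, had 52.5, 51.2 and 57.5 CPM and was level within 2-fold. Of 14 other RAS and receptor inhibitors 0 were called for TGF-β1 over control, and with luteolin + TGF-β1 against TGF-β1 the EGFR inhibitor ERRFI1 was higher (1.39, 1.30 to 1.48) and IL17RD lower (-1.25, -2.47 to -0.15).

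Upstream, 4 of 13 eligible growth factor ligands were lower and 1 higher with TGF-β1, with a median of -0.54: PDGFD (-4.30, -5.38 to -3.40), HGF (-4.05, -4.27 to -3.84), FGF7 (-2.21, -2.41 to -2.02) and FGF9 (-3.09, -4.58 to -1.89) against PDGFC (1.07, 0.98 to 1.16). In luteolin + TGF-β1 against TGF-β1, 3 of 12 were lower, which were KITLG (-1.44, -1.64 to -1.25), FGF5 (-1.28, -1.37 to -1.18) and HGF (-1.33, -1.75 to -0.93), while FGF7 (2.26, 2.06 to 2.47) and NRG1 (1.12, 0.96 to 1.29) were higher. Of 12 receptor tyrosine kinases, KIT (-3.45, -4.01 to -2.93) and FGFR4 (-2.08, -2.69 to -1.51) were lower and IGF1R higher with TGF-β1. PDGFRB (1.20, 1.15 to 1.26) was higher in luteolin + TGF-β1 against TGF-β1, and FGFR3 (-2.07, -3.49 to -0.86) and FGFR4 (-1.61, -2.87 to -0.50) were lower. EGFR had 4480, 2569 and 1183 counts, at -0.39 and -0.99. JNK and p38 kinases had 3 of 15 lower with TGF-β1 and 1 of 14 lower with luteolin + TGF-β1 against it, MAP3K5 being lower in both (-1.77, -2.05 to -1.51, and -1.60, -2.13 to -1.09). MAP2K6 (-1.88, -3.02 to -0.88) and MAPK10 (-1.12, -1.76 to -0.52) were the others lower with TGF-β1.

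Downstream, the lists, chosen with earlier results of these data known, separated in luteolin + TGF-β1 against TGF-β1. Other ERK output genes had 5 of 10 lower and 0 higher with luteolin + TGF-β1 against TGF-β1, with a median of -0.98: PLAU, the urokinase gene, at -2.04 (-2.17 to -1.92), its receptor gene PLAUR at -1.41 (-1.53 to -1.28), HMGA2 at -1.25 (-1.32 to -1.19), VGF at -2.57 (-4.11 to -1.32) and SH2B3 at -1.05 (-1.19 to -0.92). CCND1, the cyclin D1 gene, was not among them at 0.43 (0.40 to 0.46). Other immediate-early genes had 6 of 26 higher and 1 lower in that comparison, with a median of 0.35: BTG2 stood at 2.56 (2.33 to 2.81), NFKBIZ at 1.25 (1.10 to 1.40) and CCN2 at 1.05 (1.03 to 1.07), against GEM at -2.12 (-2.46 to -1.79). For TGF-β1 over control the same list had 8 of 25 higher and 3 lower, of which 5 higher calls were kept with total counts (NFKBIZ, TRIB1 and PLK3 were lost), with BHLHE40 at 2.67 (2.53 to 2.81) and GADD45B at 1.78 (1.66 to 1.89), against CEBPD at -2.26 (-2.58 to -1.94) and PLK2 at -1.89 (-2.03 to -1.76). In the ERK output list that comparison had PLAU lower (-2.08, -2.14 to -2.02) and VGF higher (1.24, 0.45 to 2.07). The backgrounds are those given above, 12.5% higher and 14.8% lower for luteolin + TGF-β1 over TGF-β1, and 3.7% and 6.67% for TGF-β1 over control.

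Transcription factor partners were read the same way. Of 7 SRF, TCF and MRTF factors, MYOCD was higher with TGF-β1 (1.454, 1.31 to 1.60) and lower with luteolin added (-1.07, -1.22 to -0.92), while SRF itself, the CArG-box factor, had 98.8, 144 and 194 CPM. Of 6 eligible other AP-1 partners, BATF3 was lower (-3.71, -5.63 to -2.27) and JDP2 higher (1.26, 1.12 to 1.39) in luteolin + TGF-β1 against TGF-β1, and BATF2 was lower with TGF-β1 (-2.29, -4.26 to -0.76). In the MYC network of 9 eligible genes, the MYC antagonist gene MXI1 was higher (1.80, 1.454 to 2.15) and MXD3 lower (-2.54, -2.94 to -2.17) for luteolin + TGF-β1 over TGF-β1, and MLXIP was higher with TGF-β1 (1.17, 1.05 to 1.29). Of 9 other ETS factors 0 were called for luteolin + TGF-β1 over TGF-β1, and ELF1 was lower with TGF-β1 (-1.06, -1.28 to -0.84). Among the named list genes, the calls of PDGFC and IGF1R for TGF-β1 over control, and of NRG1, PDGFRB and CCN2 for luteolin + TGF-β1 over TGF-β1, were lost with total counts, and those of MYOCD, SH2B3 and IL17RD in the latter were lost with the upper quartile. Against control, luteolin + TGF-β1 had 12 of 26 other immediate-early genes higher and 3 lower, and 4 of 15 JNK and p38 kinases lower, beside 12.4% higher and 17.1% lower over all genes. Of those 12 higher calls, 10 were kept with total counts. Of the 4 kinase calls, 3 were kept with the upper quartile and with DESeq2 size factors, MAP2K3 being lost. Of the 10 other ERK output genes, only 1, PLAU, was lower against control and 0 were higher, with a median of -0.78.

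The authors' deposited table gives adjusted p-values between the single libraries. In the authors' deposited table, 7 of 47 members with a value were higher and 6 lower for TGF-β1 over control at an adjusted p under 0.05, beside 5.97% and 7.7% of all 15418 genes. For luteolin + TGF-β1 over TGF-β1 the authors' deposited table has 8 members higher and 16 lower, beside 20% and 20.8%. An edgeR exact test run with the dispersion set to 0.01 returned those p-values for all 15418 genes, to within 0.001 on the log10 scale, so they rest on an assumed and not a measured spread between replicates. Of the members called above, FOS, FOSB and DUSP4 have adjusted p-values of 0.0716, 0.125 and 0.156 for TGF-β1 over control in the authors' deposited table. For luteolin + TGF-β1 over TGF-β1, FOSB, EGR3 and DUSP2 have 0.0707, 0.0557 and 0.0776 in the authors' deposited table, and the other called members are under 0.05 there.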

How the data were processed

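The mRNA of 3 MRC5 libraries at 48 h was made from TRIzol total RNA with a stranded Illumina mRNA kit, per the labels' protocols; 3 small RNA libraries were not used here. The authors deposited raw counts per Ensembl gene. The deposited TPM, log2 fold changes and p-values were also made by the authors, per the file headers. The submitters' processing notes name fastp 0.20.0, HISAT2 2.1.0, featureCounts 2.0.1, edgeR 3.36.0 and the build hg38, with no role or order. The annotation release and strand setting were not given in the sources used here, so overlapping genes cannot be told apart. Columns were matched by library name.

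Counts were scaled by library totals with TMM factors from edgeR 4.0.16 (1.11, 1.02 and 0.879 for control, TGF-β1 and luteolin + TGF-β1) in R 4.3.3. Ratios were computed over the whole table, with exact Clopper-Pearson 95% intervals conditional on the sum of both counts (scipy 1.17.1). A count of 0 was set at a floor of 3 counts, which is 0.151, 0.201 and 0.219 CPM. The intervals reflect counting error alone, because each group had 1 library. As no molecular identifiers separate molecules from PCR copies, they can be too narrow even for that error. The rule that a gene be at least 2-fold apart was tested on simulated TGF-β1 over control counts. Of 100 genes changed by 1.5 and 100 by 2 on the log2 scale, 100 and 100 were recovered. Of 13206 unchanged genes, 13159 were not called. The simulated counts held counting error only, so they give no rate of false calls between cultures. Changes close to 2-fold and changes in genes with low counts were not simulated.

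The members and lists were chosen with earlier results of these data known. Every member is accounted for; those called with TMM are given with counts in every library. From the lists, up to 4 called genes with the interval bound furthest from 0 were named, and a few more were named after their values were seen. Genes most like a member were the 5 nearest by Euclidean distance over both log2 ratios, for the member with the largest called bound in a comparison. Gene positions and promoters are from RefSeq, GRCh38.p14. Of the 53 members, 41 had a promoter in the table. Alternatives were total-count, upper-quartile and DESeq2 1.42.0 scaling, filters of 0 and 10 CPM, thresholds of 1.5-fold and 3-fold, a 99% interval, and 3 added after the data were seen: assumed dispersions of 0.04 and 0.16, and members without atypical DUSP genes.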

Additional observations from a re-analysis of the deposited data

How the results depend on the processing

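No paired analysis was possible because each group had 1 library, and no library could be left out. Member counts stayed within 1.5 times, and medians within 0.1, with DESeq2 size factors, no filter, a 99% interval or an assumed dispersion of 0.04. No called member changed sign under any scaling. Total counts moved the median of all genes from -0.01 to -0.14, from -0.04 to -0.27 and from -0.08 to -0.43 (log2) for TGF-β1 over control, luteolin + TGF-β1 over TGF-β1 and luteolin + TGF-β1 over control, and the members' medians from 0.08 to -0.048, from -0.37 to -0.59 and from -0.17 to -0.51. The upper quartile moved the median of all genes to 0.15 and 0.11 in the latter comparisons and the members' medians to -0.20 and 0.00228, so that the sign of the member median against control is set by the scaling. With a 10 CPM filter, 3 of 30 members were higher and 3 lower for TGF-β1 over control (2.65% and 4.06% of all genes) and 2 of 32 higher for luteolin + TGF-β1 over TGF-β1 (8.04% of all genes), and the medians were -0.49 and -0.28 for luteolin + TGF-β1 over TGF-β1 and over control. At 1.5-fold, 10 of 43 members were higher for luteolin + TGF-β1 over control, beside 20.3% of all genes. At 3-fold, 2 were higher and 1 lower for TGF-β1 over control, beside 1.72% and 3.22% of all genes. For luteolin + TGF-β1 over TGF-β1, 3 were higher and 6 lower, beside 6.22% and 8.08%. For luteolin + TGF-β1 over control, 5 were higher and 7 lower, beside 6.59% and 10.1%. An assumed dispersion of 0.16 left 2 higher (JUNB and EGR2) and 1 lower (SPRY1) in the first comparison, beside 1.42% and 2.51% of all genes. In the second it left 3 higher (NR4A1, NR4A3 and DUSP1) and 4 lower (EGR1, ETV1, ETV4 and SPRY2), beside 4.76% and 6.79%. In the third it left 5 higher (JUNB, EGR2, NR4A1, NR4A3 and DUSP1) and 7 lower, beside 5.35% and 8.67%. Without atypical DUSP genes the medians were 0.18, -0.55 and -0.50. Apart from the filters and thresholds, whose construction sets how many genes can be called, the cause was not tested. Depth limits FOS, FOSB, EGR3, DUSP2, DUSP4, DUSP19 and NR4A2, each with at most 44 counts in every library.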

Other observations

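Some members lie near each other on GRCh38. JUNB and IER2 are separated by 357 kb on chromosome 19, and both had their control level as the lowest of the 3 libraries. ETV4 and DUSP3 are separated by 220 kb on chromosome 17; ETV4 spanned 8.26 to 55.6 CPM and DUSP3 116 to 153 CPM.

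Within-family shares for further pairs, which need no scaling between libraries, are given with exact Clopper-Pearson intervals. FOSL1 made up 59.4% (58.2 to 60.5) of the FOSL1 and FOSL2 counts in control, 59.0% (57.5 to 60.4) with TGF-β1 and 35.5% (33.8 to 37.3) with luteolin + TGF-β1. ETV4 made up 28.6% (26.2 to 31.2), 46.5% (44.1 to 48.8) and 14.9% (12.5 to 17.7) of the ETV4 and ETV5 counts in the same order. SPRY2 made up 42.7% (40.2 to 45.1), 32.7% (30.4 to 35.1) and 24.6% (21.1 to 28.3) of the SPRY2 and SPRY4 counts. DUSP1 made up 67.7% (66.2 to 69.2), 77.1% (75.0 to 79.1) and 96.7% (96.3 to 97.1) of the DUSP1 and DUSP5 counts.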
